A study of Mus musculus with 6 samples.

Results

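The genes described here are the interferon-stimulated genes, a set of 39 symbols of which 38 were found among the 31053 genes of the deposited files. Mx2 was not analysed here. The rule that picks them uses gene names alone. They were measured by droplet single-cell RNA sequencing of mouse dorsal skin in 6 libraries, 2 for each of 3 groups. Sham mice received no treatment, IMQ mice had 62.5 mg of cream holding 5% imiquimod spread daily on the shaved back for 4 days, and IMQ+SHP099 mice received the same cream and SHP099 at 10 mg/kg by gavage daily for 4 days, and the labels do not make clear how these days lay relative to the cream. All were female C57BL/6J mice aged 8 to 10 weeks, and the skin of several mice was pooled for each library. The IMQ model stands for psoriasis-like inflammation only over this short course. The library was the replicate (n = 2 per group), so p-values measure the spread between these pools.

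Imiquimod binds Toll-like receptor 7, an endosomal sensor of single-stranded RNA whose signalling through MyD88 leads to type I interferon. SHP099 is an allosteric inhibitor of SHP2, the phosphatase encoded by Ptpn11. Type I interferons bind a receptor made of Ifnar1 and Ifnar2, which activates the kinases Jak1 and Tyk2 and a complex that holds Stat2 and Irf9. That complex binds the interferon-stimulated response element. Interferon gamma acts through Ifngr1 and Ifngr2 on genes with the gamma-activated site, and the interferon-inducible GTPases respond strongly to it.

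Among the antiviral effectors, Isg15 is a ubiquitin-like modifier and Herc6 is its ligase in mice. Ifit1 binds foreign RNA and Ifit2 and Ifit3 are its relatives, Ifitm3 blocks viral fusion at membranes, and Bst2 (tetherin) holds budding virions at the cell surface. Mx1 and Mx2 are dynamin-like GTPases. Rsad2 (viperin) makes a chain-terminating nucleotide, and Cmpk2 is its neighbouring nucleotide kinase. Zbp1 senses Z-form nucleic acid, Eif2ak2 (PKR) halts translation on double-stranded RNA, Xaf1 promotes cell death, Rtp4 is a receptor transporter induced by interferon, Parp14 is an ADP-ribosyltransferase and Trim30a is a TRIM protein. Ifi27, Ifi35 and Ifi44 are named for their induction. Oas1a, Oas2 and Oas3 make the oligoadenylates that activate RNase L, and Oasl1 and Oasl2 are their relatives. Ifih1 (MDA5) and Ddx58 (RIG-I) sense cytosolic RNA. Irf7, Irf9 and Stat2 are transcription factors of the pathway, and Usp18 removes Isg15 and dampens receptor signalling. Gbp2, Gbp3, Gbp5, Gbp7, Igtp, Irgm1, Ifi47 and Iigp1 are interferon-inducible GTPases that act on membranes of intracellular pathogens. Several have close sequence relatives (among them Ifit3, Oas1a, Trim30a and the GTPases), and their counts are uncertain to the extent that reads could be shared.

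The promoters of 5 members on which the results turn are shown because they hold matches to the elements that the factors of this pathway bind. In the GENCODE annotation of GRCm38, Isg15 lies at chr4:156199424-156200818, Ifit1 at chr19:34640871-34650009, Ifitm3 at chr7:141009586-141010770, Gbp2 at chr3:142620602-142638008 and Igtp at chr11:58199556-58207591, all of them protein-coding. The windows run from 250 bases before to 50 bases after the RefSeq start (GRCm38.p6, gene strand, 5′ to 3′). Capitals mark matches to the core of the interferon-stimulated response element (GAAANNGAAA on either strand) or of the gamma-activated site (TTCNNNGAA, which reads the same on both strands). Matches may overlap. The windows are chr4:156200769-156201068 (minus strand) for Isg15, chr19:34640639-34640938 (plus) for Ifit1, chr7:141010695-141010994 (minus) for Ifitm3, chr3:142620413-142620712 (plus) for Gbp2 and chr11:58199306-58199605 (plus) for Igtp.
Isg15: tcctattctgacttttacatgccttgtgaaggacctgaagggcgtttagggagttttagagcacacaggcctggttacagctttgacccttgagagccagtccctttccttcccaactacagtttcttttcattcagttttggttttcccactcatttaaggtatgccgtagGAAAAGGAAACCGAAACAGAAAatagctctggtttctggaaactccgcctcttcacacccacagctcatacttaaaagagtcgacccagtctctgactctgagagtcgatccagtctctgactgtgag
Ifit1: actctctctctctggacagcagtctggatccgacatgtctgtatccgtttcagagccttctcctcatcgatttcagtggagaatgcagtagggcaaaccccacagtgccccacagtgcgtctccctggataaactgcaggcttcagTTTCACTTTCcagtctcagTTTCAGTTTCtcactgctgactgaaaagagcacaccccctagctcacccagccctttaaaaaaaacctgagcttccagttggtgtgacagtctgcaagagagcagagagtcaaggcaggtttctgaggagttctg
Ifitm3: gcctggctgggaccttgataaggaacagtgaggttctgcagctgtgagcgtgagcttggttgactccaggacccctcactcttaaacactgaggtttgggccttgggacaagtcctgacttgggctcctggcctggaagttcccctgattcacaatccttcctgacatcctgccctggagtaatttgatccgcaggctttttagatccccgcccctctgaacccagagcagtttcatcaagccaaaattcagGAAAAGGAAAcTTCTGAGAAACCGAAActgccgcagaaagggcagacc
Gbp2: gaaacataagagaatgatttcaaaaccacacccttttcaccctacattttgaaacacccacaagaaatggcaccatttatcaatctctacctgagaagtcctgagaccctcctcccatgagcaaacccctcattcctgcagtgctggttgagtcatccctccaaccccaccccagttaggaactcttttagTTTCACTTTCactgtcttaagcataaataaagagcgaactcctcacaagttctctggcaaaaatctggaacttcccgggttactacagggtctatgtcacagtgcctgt
Igtp: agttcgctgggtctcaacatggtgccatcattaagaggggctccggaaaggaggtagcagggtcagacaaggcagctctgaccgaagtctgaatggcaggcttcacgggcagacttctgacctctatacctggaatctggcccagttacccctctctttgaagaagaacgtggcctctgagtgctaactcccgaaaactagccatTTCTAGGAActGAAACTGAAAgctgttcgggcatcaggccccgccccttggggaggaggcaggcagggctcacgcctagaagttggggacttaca

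Of the 30 members in the RefSeq promoter table, 19 held the interferon-stimulated response element core (63.3%), against 3.99% of 27025 genes. The gamma-activated site core was in 9 of the 30 (30%), against 9.55% of all genes, and both were in 7 members (23.3%, against 0.614%). Isg15 had 3 overlapping response element matches and Ifit1 had 2. Ifitm3 had 2 response element matches and 1 gamma-activated site match, Gbp2 had 1 response element match, and Igtp had 1 of each. By role, 6 of 7 GTPases in the table and 8 of 14 antiviral effectors held the response element core. A match is a description of the sequence, and these windows are short. Some members also cluster in the genome: Gbp2, Gbp3, Gbp5 and Gbp7 lie together on chromosome 3 and the 3 Ifit genes on chromosome 19. On chromosome 5, Oasl1 and Oasl2 lie within 114896936-114937915, apart from Oas1a, Oas2 and Oas3 within 120730333-120907521.

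After filtering, 50850 of 55201 barcodes were kept, 7382 to 10293 per library, with a median of 5645 to 18263.5 UMIs per cell. A UMI is a tag that counts a single captured molecule. Any pair of libraries shared 12 to 30 barcode sequences. Cells were placed in classes by marker genes that hold no member, and 92.8% received a class. No doublet caller was run. Keratinocytes were 70.9% and 22.3% of the Sham libraries, 17.2% and 7.95% of the IMQ libraries and 63.2% and 6.08% of the IMQ+SHP099 libraries, so the first Sham and the first IMQ+SHP099 library stood apart in makeup. The first Sham library held 49 macrophages and the first IMQ+SHP099 library 52, against 253 to 575 elsewhere. Levels are given as CPM, the UMIs of a gene per 1000000 UMIs of the class in that library. A lower level in a sum over cells cannot be told apart from fewer expressing cells.

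By their summed level, interferon-stimulated genes were highest in endothelial cells, lower in macrophages and fibroblasts, and lowest in keratinocytes and T lymphocytes among the 5 classes tested. The summed level of all 38 genes in endothelial cells was 12000 and 8890 for Sham, 9960 and 10400 for IMQ and 12800 and 12000 for IMQ+SHP099. In macrophages and monocytes it was 4450 and 3930 for Sham, 4870 and 6100 for IMQ and 4250 and 7300 for IMQ+SHP099, and in fibroblasts 8030 and 2560 for Sham, 3850 and 4270 for IMQ and 5450 and 5050 for IMQ+SHP099. T lymphocytes held 1240 and 2220 for Sham, 1320 and 2040 for IMQ and 1020 and 1280 for IMQ+SHP099. Keratinocytes held 1250 and 646 for Sham, 740 and 884 for IMQ and 1190 and 969 for IMQ+SHP099. Every endothelial library lay above every library of the other classes shown here. Keratinocytes and T lymphocytes overlapped, as did fibroblasts and macrophages. Ifitm3 and Bst2 hold many of these UMIs, so the sum was also taken over the other 36 genes. It was then 4360 and 4680 for Sham, 3330 and 3940 for IMQ and 4050 and 4080 for IMQ+SHP099 in endothelial cells. In macrophages and monocytes it was 2720 and 2740 for Sham, 1480 and 2020 for IMQ and 1890 and 1980 for IMQ+SHP099, so both Sham libraries lay above the IMQ libraries, whereas with Ifitm3 and Bst2 both IMQ libraries lay above the Sham libraries. Over these 36 genes fibroblasts held 2250 and 1280 for Sham, 833 and 1090 for IMQ and 1350 and 1260 for IMQ+SHP099. T lymphocytes held 749 and 1940 for Sham, 1130 and 1830 for IMQ and 645 and 972 for IMQ+SHP099, and keratinocytes held 365 and 286 for Sham, 140 and 167 for IMQ and 168 and 164 for IMQ+SHP099, and every T lymphocyte library lay above every keratinocyte library.

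Each class was tested against the mean of the other 4 with the library as a block (edgeR quasi-likelihood, 12611 genes). For every class but keratinocytes that mean includes keratinocytes, whose low levels (median -4.09) lower it and so raise the difference. A class called higher is therefore not shown to exceed the classes other than keratinocytes, and no contrast without keratinocytes was run. In endothelial cells 33 of 38 genes were higher and 3 lower, beside 28.5% and 26.1% of all genes, with a median log2 difference of 1.71. In macrophages and monocytes 33 were higher and 1 lower (background 25.6% and 34.3%), with a median of 1.58. Fibroblasts had 23 higher and 2 lower (38.2% and 24.9%, median 0.89). T lymphocytes had 8 higher and 15 lower (26.5% and 34.7%, median -0.20), and the 8 became 14 without the first Sham library. In keratinocytes none was higher and 37 were lower (35.1% and 35.8%, median -4.09), Ifi27 being the exception at -0.21 ± 0.21 (SE, adjusted p = 0.401).

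Endothelial cells and macrophages are described next by the genes that stood out in each. Iigp1 in endothelial cells exceeded the mean of the other classes by a log2 difference of 4.93 ± 0.25 (SE, adjusted p = 4.71e-15), and in macrophages the difference was 0.07 ± 0.36 (SE, adjusted p = 0.89). Ifi44 was higher in endothelial cells by 5.85 ± 0.28 (SE, adjusted p = 1.55e-15). In macrophages Oas2 was higher by 5.16 ± 0.45 (SE, adjusted p = 2.45e-10) and Oas3 by 5.04 ± 0.40 (SE, adjusted p = 3.91e-11), while Oas3 was lower in endothelial cells at -3.14 ± 0.85 (SE, adjusted p = 0.003). Mx1 was higher in macrophages by 4.96 ± 0.38 (SE, adjusted p = 2.30e-11) and lower in endothelial cells at -5.15 ± 0.97 (SE, adjusted p = 7.50e-05), where a single library held any of its UMIs. Ifitm3 was low in T lymphocytes, at -4.91 ± 0.31 (SE, adjusted p = 3.99e-13).

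**Figure D1:**
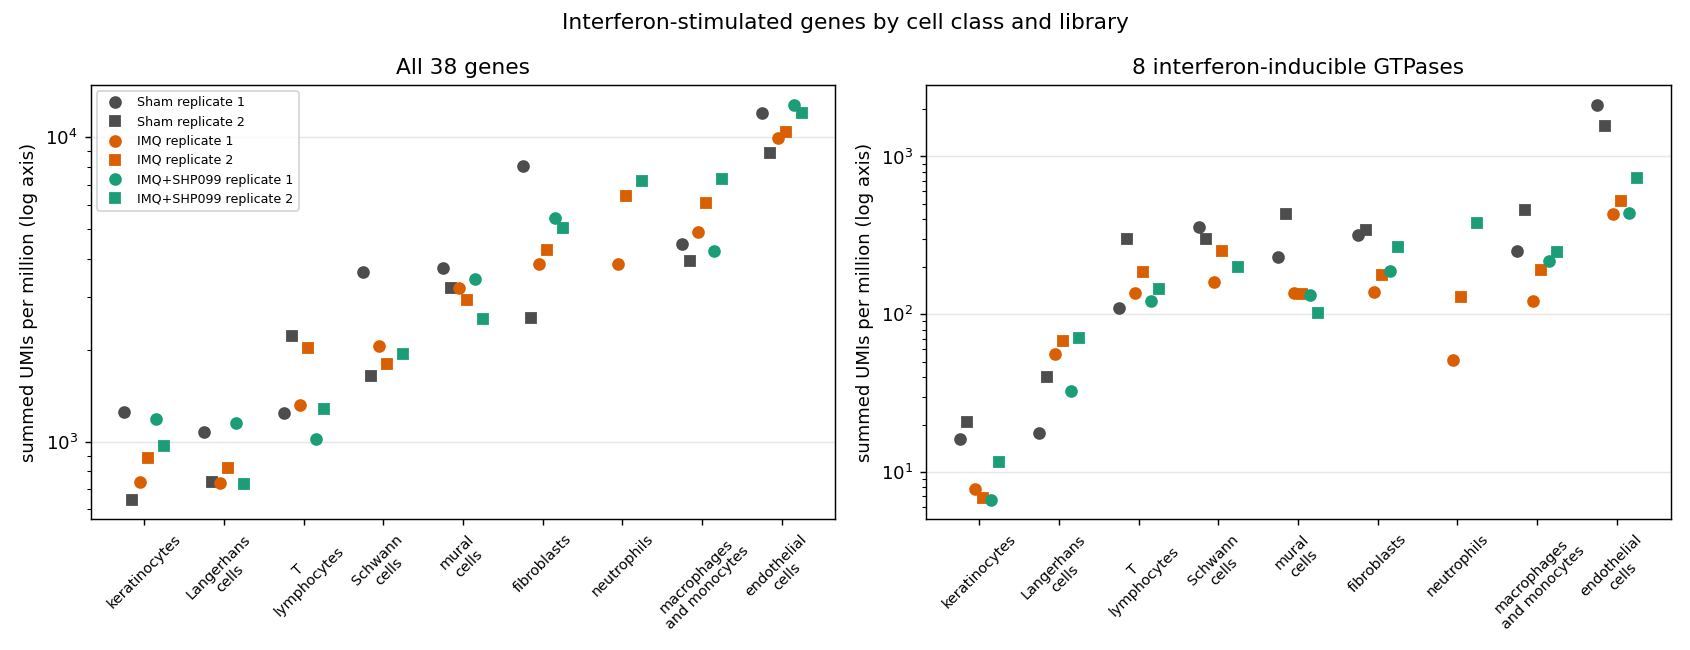
Summed CPM (log axis, UMIs per 1000000) of all 38 interferon-stimulated genes (left) and of the 8 interferon-inducible GTPases (right) in 9 cell classes. Each point is a library with at least 20 cells of the class, coloured by group, with circles for replicate 1 and squares for replicate 2. Endothelial cells sat highest at 8890 to 12800, and their GTPase sum was 1570 and 2130 in Sham but 733 or lower in the other 4 libraries.

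Classes outside the 5 tested ones are given as values. Neutrophils, which had at least 20 cells only in the IMQ libraries and the second IMQ+SHP099 library, held a summed level of 3840 and 6400 in IMQ and 7200 in IMQ+SHP099. Mural cells of the vessel wall held 3720 and 3190 for Sham, 3200 and 2920 for IMQ and 3420 and 2540 for IMQ+SHP099. Their GTPase sum was 231 and 429 for Sham, 136 and 134 for IMQ and 133 and 102 for IMQ+SHP099, so both Sham libraries stood above the other 4. Langerhans cells, the dendritic cells of the epidermis, held 1080 and 739 for Sham, 735 and 823 for IMQ and 1150 and 729 for IMQ+SHP099, as low as keratinocytes by this sum. Without Ifitm3 and Bst2 they held 397 and 475 for Sham, 459 and 567 for IMQ and 479 and 446 for IMQ+SHP099. Every one of these libraries then lay above every keratinocyte library. Schwann cells held 3610 and 1650 in Sham, 2070 and 1800 in IMQ, and 1940 in the second IMQ+SHP099 library. Mast cells and basophils held 2910 and 2420 in IMQ and 564 in the second Sham library, from 40, 20 and 31 cells. Isg15 alone measured 1600 and 1500 in IMQ against 32.2 in that Sham library, and Ifitm3 655 and 516 against 80.6. The GTPase sum of this class was 69.4 and 59 in IMQ against 80.6, and Ifit2 and Ifit3 had no UMI in these libraries. Dendritic cells could be measured in the second Sham library only, at 1670.

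Within a class the UMIs of these genes were also counted cell by cell. Each cell was thinned to 2000 UMIs, shallower cells were left out, and UMIs of 35 members (all but Ifitm3, Bst2 and Ifi27) were counted. In endothelial cells 52.9% (40.4 to 65.2) and 60.5% (55.4 to 65.3) of cells held 5 or more such UMIs for Sham, 33.2% (27 to 39.8) and 42.1% (35.7 to 48.7) for IMQ and 34% (24.7 to 44.3) and 42.4% (34.1 to 51.1) for IMQ+SHP099. Brackets hold 95% intervals (exact, Clopper-Pearson) for counting error alone. In keratinocytes the share was at most 0.475% in any library. Fibroblasts of the first Sham library reached 32.7% (29.7 to 35.8) and those of the second 12.8% (11.7 to 14), against 3.79% (3.17 to 4.5) and 6% (5.41 to 6.63) in IMQ and 9.79% (8.47 to 11.2) and 9.09% (8.24 to 10) in IMQ+SHP099. The tenth of fibroblasts richest in these genes held 35% to 45.6% of their UMIs, and 20.4% to 40.5% of fibroblasts held none. With a mean of 1.22 to 4.31 such UMIs per fibroblast, sampling alone gives some unevenness, and its part was not tested. In neutrophils the share was 13.8% (8.63 to 20.5) and 48.8% (42.8 to 54.8) in IMQ and 63.2% (51.3 to 73.9) in the second IMQ+SHP099 library.

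The same thinned cells gave a mean log score over the 38 members, which is a level and not a test. In endothelial cells it was 0.45 and 0.428 for Sham, 0.305 and 0.334 for IMQ and 0.328 and 0.349 for IMQ+SHP099, so both Sham libraries lay above the other 4. Unthinned, the same scores were 0.452 and 0.51, 0.38 and 0.4, and 0.353 and 0.399. In fibroblasts the thinned score was 0.313 and 0.168 for Sham, 0.161 and 0.187 for IMQ and 0.219 and 0.208 for IMQ+SHP099. The groups Sham and IMQ overlapped there, and both IMQ+SHP099 libraries exceeded both IMQ libraries. In keratinocytes the score stayed between 0.0471 and 0.0723.

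The question of the first comparison was whether imiquimod cream changed these genes. Over all cells of a library no member passed the test (0 of 38, beside 0% of 17382 genes), and none had an unadjusted p under 0.05. DESeq2 also called none (3.3% of genes). Isg15 measured 50.7 and 78 for Sham, 73.4 and 92.3 for IMQ and 22.8 and 100 for IMQ+SHP099. Ifit1 measured 11.9 and 77.9 for Sham, 36.3 and 48.9 for IMQ and 9.91 and 58 for IMQ+SHP099. Ifit3 measured 10.7 and 17.5 for Sham, 8.48 and 16 for IMQ and 2.17 and 15.2 for IMQ+SHP099. The libraries with most keratinocytes, the first Sham and the first IMQ+SHP099 library, were lowest for Isg15 and Ifit1. Ifitm3 measured 1160 and 836 for Sham, 1730 and 2370 for IMQ and 1280 and 2690 for IMQ+SHP099 (log2 fold change 0.96 ± 0.67 (SE), adjusted p = 0.871). Bst2 measured 119 and 142 for Sham, 79.5 and 147 for IMQ and 37.9 and 206 for IMQ+SHP099. The GTPase Gbp2 measured 11.9 and 50.8 for Sham, 18.4 and 32.8 for IMQ and 6.43 and 46.8 for IMQ+SHP099. The 5 lowest unadjusted p values belonged to Ifitm3, Ifi44, Ifi35, Gbp5 and Oas3, of which Ifi44 stood at log2 fold change -1.37 ± 1.01 (SE), unadjusted p = 0.222, adjusted p = 0.878. The summed level of all 38 genes, 1830 and 2070 for Sham, 2420 and 3460 for IMQ and 1620 and 3950 for IMQ+SHP099, was lowest in the 2 libraries with most keratinocytes and highest in the 2 with fewest, and the part of cell makeup in it was not tested.

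The other preset genes over all cells did not pass the test either. Irf7 measured 22.1 and 27.7 for Sham, 25 and 36.7 for IMQ and 10.5 and 43.5 for IMQ+SHP099. Stat2 measured 11.7 and 40.1 for Sham, 16.6 and 25.8 for IMQ and 6.83 and 28.5 for IMQ+SHP099, and Usp18 measured 8.29 and 11.9 for Sham, 3.57 and 8.15 for IMQ and 1.53 and 9.7 for IMQ+SHP099. The first Sham and first IMQ+SHP099 library were lowest for Stat2. Oasl2 measured 8.81 and 25.3 for Sham, 10.3 and 24.6 for IMQ and 4.76 and 28.9 for IMQ+SHP099. Igtp measured 6.71 and 20.5 for Sham, 6.03 and 12.1 for IMQ and 3.05 and 12.5 for IMQ+SHP099, and Iigp1 measured 7.83 and 71.9 for Sham, 15.9 and 27.2 for IMQ and 4 and 40.7 for IMQ+SHP099. The second Sham library was highest for both GTPases.

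In keratinocytes, where these genes were scarce, 4 of 37 tested members fell in IMQ and none rose, beside 12.5% of 14389 genes in either direction, 7.32% lower and 5.19% higher. Usp18, the Isg15 protease, measured 6.34 and 6.94 for Sham, 0.198 and 0.195 for IMQ and 0.51 and 0.391 for IMQ+SHP099 (log2 fold change -4.79 ± 0.49 (SE), adjusted p = 0.00137). Both Sham libraries stood more than 10 times above the other 4. Herc6, the Isg15 ligase, measured 2.19 and 3.47 for Sham, 0.396 and 0.624 for IMQ and 0.463 and 0.684 for IMQ+SHP099 (log2 fold change -2.18 ± 0.48 (SE), adjusted p = 0.0251). Igtp measured 3.4 and 2.55 for Sham, 0.528 and 0.897 for IMQ and 1.29 and 1.76 for IMQ+SHP099 (log2 fold change -1.87 ± 0.50 (SE), adjusted p = 0.0468). Irf9, the DNA-binding part of the interferon complex, measured 15.8 and 26.5 for Sham, 8.68 and 9.01 for IMQ and 7.27 and 8.9 for IMQ+SHP099 (log2 fold change -0.93 ± 0.24 (SE), adjusted p = 0.0413). For all 4 genes both Sham libraries lay above both IMQ libraries, beside 43.4% of the 11921 genes with an average of 1 CPM or more. Calls in either direction were about as frequent among members as among all genes. Of these calls, those of Herc6, Igtp and Irf9 ended when either IMQ library was left out, and Usp18 then remained alone. Without either IMQ+SHP099 library, Usp18 and Herc6 remained. The median log2 fold change of the members was -0.60, against -0.09 for all genes.

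No other member passed the test in keratinocytes, and most were scarce there. Isg15 measured 12.5 and 6.53 for Sham, 5.25 and 7.92 for IMQ and 9.85 and 11.6 for IMQ+SHP099 (log2 fold change -0.36 ± 0.44 (SE), adjusted p = 0.624), with the first Sham library highest. Ifit1 measured 1.19 and 3.72 for Sham, 2 and 3.51 for IMQ and 2.82 and 3.62 for IMQ+SHP099, and Ifit3 measured 1.06 and 0.504 for Sham, 0.418 and 0.78 for IMQ and 0.228 and 0.684 for IMQ+SHP099. Neither separated the groups. Ifitm3 measured 858 and 348 for Sham, 592 and 708 for IMQ and 1010 and 790 for IMQ+SHP099, and Bst2 measured 23.1 and 12.2 for Sham, 7.28 and 8.93 for IMQ and 10.8 and 14.7 for IMQ+SHP099. The first Sham library was again highest for Bst2. Irf7 measured 5.58 and 4.16 for Sham, 3.43 and 2.18 for IMQ and 4 and 4.3 for IMQ+SHP099, and Stat2 measured 5.96 and 14.3 for Sham, 5.67 and 6.04 for IMQ and 3.04 and 7.33 for IMQ+SHP099. Oasl2 measured 2.92 and 3.53 for Sham, 0.593 and 1.21 for IMQ and 1.14 and 1.08 for IMQ+SHP099 (log2 fold change -1.59 ± 0.48 (SE), adjusted p = 0.0651), and both Sham libraries lay above the rest. Gbp2 measured 4.63 and 4.89 for Sham, 3.21 and 2.03 for IMQ and 1.97 and 3.13 for IMQ+SHP099, and Iigp1 measured 0.702 and 2.65 for Sham, 0.462 and 0.273 for IMQ and 0.228 and 1.86 for IMQ+SHP099. Rsad2 was the only member with an unadjusted p under 0.05 and a higher level in IMQ, at 0.96 and 1.51 in Sham against 2.64 and 2.07 in IMQ (unadjusted p = 0.0392 by edgeR).

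In fibroblasts no member passed the test (0 of 38, beside 0.532% of 14862 genes), although 37 of 38 had a negative log2 fold change, with a median of -1.10 against -0.01 for all genes. Of the 38, 20 had an unadjusted p under 0.05, all with the lower level in IMQ, against 12.5% of all genes, and DESeq2 called 10 (4.85% of genes). The first Sham library stood apart. Isg15 measured 410 and 82.3 for Sham, 50.9 and 72.2 for IMQ and 98.4 and 74.3 for IMQ+SHP099 (log2 fold change -2.07 ± 0.76 (SE), adjusted p = 0.313). Bst2 measured 1090 and 192 for Sham, 132 and 201 for IMQ and 269 and 303 for IMQ+SHP099 (log2 fold change -2.03 ± 0.80 (SE), adjusted p = 0.356), and Irf7 measured 193 and 35.8 for Sham, 40.8 and 45.8 for IMQ and 70.3 and 56.2 for IMQ+SHP099 (log2 fold change -1.47 ± 0.75 (SE), adjusted p = 0.52). For all 3 the first Sham library stood far above the other 5. Without it the median log2 fold change was -0.30, and without the second Sham library -1.67.

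The 5 fibroblast genes with the lowest unadjusted p were Gbp5, Gbp2, Gbp3, Ifit1 and Iigp1, and for them neither Sham library stood apart as it did for Isg15. Gbp5, which promotes inflammasome assembly, measured 13.2 and 18.4 for Sham, 2.32 and 2.74 for IMQ and 3.77 and 10.2 for IMQ+SHP099 (log2 fold change -2.56 ± 0.44 (SE), unadjusted p = 0.000554, adjusted p = 0.0664). Gbp2 measured 72.1 and 81.4 for Sham, 32.1 and 41.1 for IMQ and 47.3 and 62 for IMQ+SHP099 (log2 fold change -1.0 ± 0.23 (SE), unadjusted p = 0.00326, adjusted p = 0.127). Gbp3 measured 26.8 and 18.3 for Sham, 7.05 and 8.8 for IMQ and 11.9 and 12.3 for IMQ+SHP099 (log2 fold change -1.47 ± 0.35 (SE), unadjusted p = 0.00352, adjusted p = 0.132). In each, both Sham libraries lay above all other libraries. Ifit1 measured 90.8 and 68.9 for Sham, 26.3 and 37.1 for IMQ and 41.6 and 54.9 for IMQ+SHP099 (log2 fold change -1.30 ± 0.32 (SE), unadjusted p = 0.00466, adjusted p = 0.144), and Iigp1 measured 61.3 and 89.4 for Sham, 32.3 and 39.1 for IMQ and 37.8 and 61.7 for IMQ+SHP099 (log2 fold change -0.99 ± 0.26 (SE), unadjusted p = 0.00592, adjusted p = 0.156). Both Sham libraries exceeded both IMQ libraries for each of these genes, beside 19.3% of the 12823 genes with an average of 1 CPM or more. Igtp measured 26.9 and 27.5 for Sham, 9.83 and 15.4 for IMQ and 16.3 and 16.2 for IMQ+SHP099 (log2 fold change -1.05 ± 0.28 (SE), adjusted p = 0.176).

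Ifitm3 behaved apart from the rest in fibroblasts, at 4690 and 1090 for Sham, 2880 and 2980 for IMQ and 3840 and 3490 for IMQ+SHP099 (log2 fold change -0.05 ± 0.72 (SE), adjusted p = 0.998), where the first Sham library was highest and the second lowest of the 6. Ifit3 measured 115 and 24 for Sham, 13.2 and 18.9 for IMQ and 18.5 and 21.1 for IMQ+SHP099, and Oasl2 measured 73.4 and 39.3 for Sham, 18.6 and 32.3 for IMQ and 40.2 and 41.3 for IMQ+SHP099. The first Sham library was highest for both. Usp18 measured 30.1 and 14.6 for Sham, 6.84 and 12 for IMQ and 10.1 and 15.1 for IMQ+SHP099, and Stat2 measured 53.5 and 54.8 for Sham, 29.4 and 35.5 for IMQ and 41.7 and 39.9 for IMQ+SHP099. Ifi27 was the only member with a positive log2 fold change, at 211 and 182 in Sham against 231 and 280 in IMQ (log2 fold change 0.42 ± 0.37 (SE), adjusted p = 0.804). Keratinocyte markers in the fibroblast sums, 10 genes, summed to 1230 and 407 for Sham, 244 and 174 for IMQ and 643 and 131 for IMQ+SHP099, highest in the first Sham library, and their part in these levels was not tested.

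In endothelial cells, which line the vessels, no member passed the test (0 of 34, beside 0.129% of 10111 genes), but 21 of 34 had an unadjusted p under 0.05 (14.6% of all genes), 18 with the lower and 3 with the higher level in IMQ. DESeq2 called 9 (0.712% of genes). The lower ones included all 8 interferon-inducible GTPases, whose sum was 2130 and 1570 for Sham, 431 and 523 for IMQ and 437 and 733 for IMQ+SHP099. Iigp1 measured 507 and 622 for Sham, 123 and 142 for IMQ and 97 and 217 for IMQ+SHP099 (log2 fold change -2.02 ± 0.37 (SE), unadjusted p = 0.000457, adjusted p = 0.107). Gbp2 measured 414 and 170 for Sham, 57.5 and 79.9 for IMQ and 68.6 and 118 for IMQ+SHP099 (log2 fold change -2.02 ± 0.49 (SE), unadjusted p = 0.00279, adjusted p = 0.175). Igtp measured 222 and 94.9 for Sham, 24.7 and 33.7 for IMQ and 51.9 and 36.1 for IMQ+SHP099 (log2 fold change -2.31 ± 0.47 (SE), unadjusted p = 0.000873, adjusted p = 0.127). For all 8 GTPases both Sham libraries lay above both IMQ libraries and both IMQ+SHP099 libraries. Of the 12627 genes with an average of 1 CPM or more, 24.8% had both Sham libraries above both IMQ libraries. For 21.3% both Sham libraries lay above both IMQ+SHP099 libraries. Among the 5 lowest unadjusted p values, Parp14 stood at 167 and 201 in Sham against 47.1 and 63.7 in IMQ (log2 fold change -1.66 ± 0.28 (SE), unadjusted p = 0.000231, adjusted p = 0.0893) and Ifi44 at 71.2 and 132 in Sham against 31.4 and 34.6 in IMQ (log2 fold change -1.59 ± 0.28 (SE), unadjusted p = 0.00036, adjusted p = 0.095). Gbp5 measured 167 and 107 in Sham against 34.1 and 38.6 in IMQ (log2 fold change -1.80 ± 0.34 (SE), unadjusted p = 0.000514, adjusted p = 0.11) and Gbp7 measured 255 and 240 in Sham against 65.1 and 83.9 in IMQ (log2 fold change -1.66 ± 0.33 (SE), unadjusted p = 0.000743, adjusted p = 0.116).

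**Figure D2:**
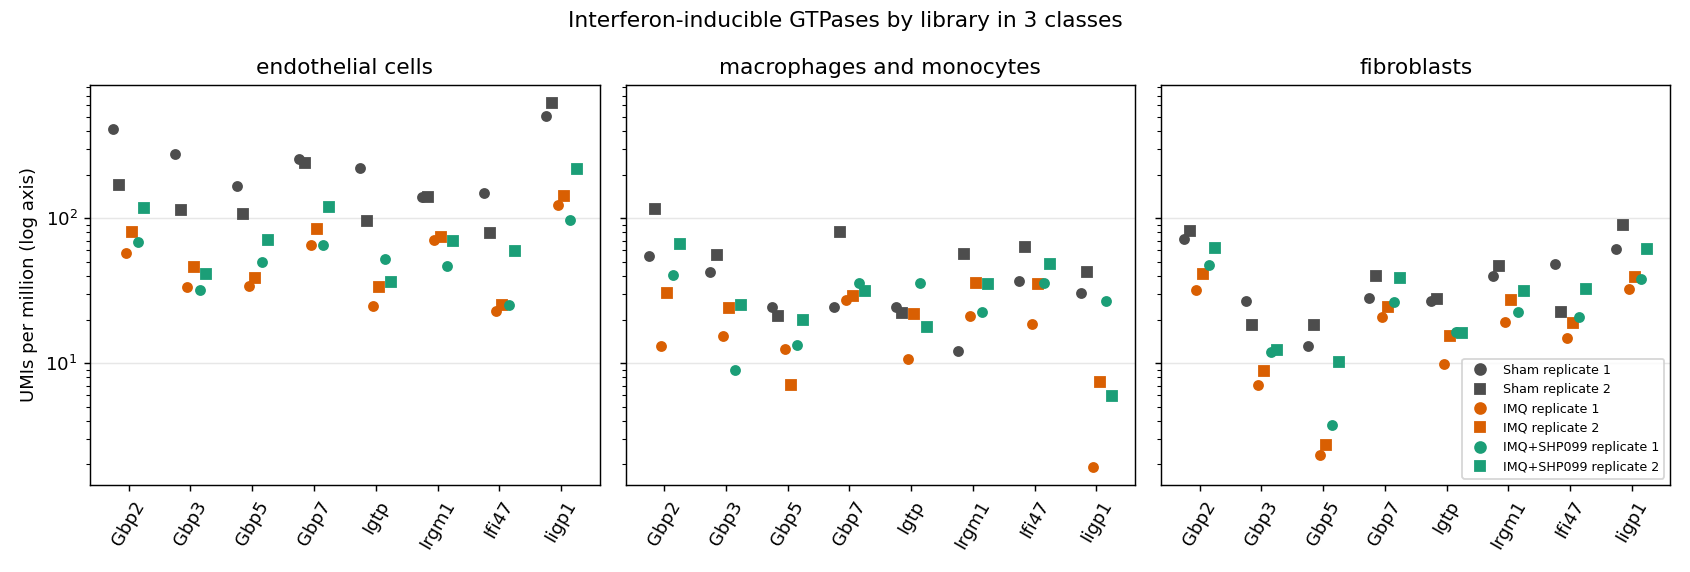
CPM (log axis, UMIs per 1000000) of the 8 interferon-inducible GTPases in endothelial cells, macrophages and monocytes, and fibroblasts. Each point is a library, coloured by group, with circles for replicate 1 and squares for replicate 2. In endothelial cells both Sham points lie above the other 4 for every gene, as with Iigp1 at 507 and 622 against 97 to 217. Among 12627 genes in that class, both Sham libraries lay above both IMQ libraries for 24.8% and above both IMQ+SHP099 libraries for 21.3%.

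In the same endothelial cells 3 members had the higher level in IMQ. Isg15 measured 323 and 367 for Sham, 800 and 818 for IMQ and 1140 and 921 for IMQ+SHP099 (log2 fold change 1.30 ± 0.27 (SE), unadjusted p = 0.00117, adjusted p = 0.144). Ifit1 measured 195 and 505 for Sham, 634 and 845 for IMQ and 972 and 892 for IMQ+SHP099 (log2 fold change 1.17 ± 0.39 (SE), unadjusted p = 0.0152, adjusted p = 0.257). Oasl1 measured 5.48 and 30.2 for Sham, 44.9 and 54.8 for IMQ and 20.1 and 36.1 for IMQ+SHP099 (log2 fold change 1.21 ± 0.43 (SE), unadjusted p = 0.0203, adjusted p = 0.276). Both IMQ libraries exceeded both Sham libraries for these 3, beside 20.3% of the 12627 genes with an average of 1 CPM or more. Leaving out the first Sham library gave 12 calls, 2 higher and 10 lower (4.55% of genes), and leaving out the second gave 7, all lower (0.487% of genes). Ifit3 measured 76.7 and 72.8 for Sham, 60.6 and 114 for IMQ and 48.5 and 63.8 for IMQ+SHP099, and Ifitm3 measured 6440 and 3600 for Sham, 6250 and 6030 for IMQ and 8310 and 7450 for IMQ+SHP099 (log2 fold change 0.33 ± 0.38 (SE), adjusted p = 0.707). Bst2 measured 1180 and 609 for Sham, 382 and 429 for IMQ and 420 and 458 for IMQ+SHP099 (log2 fold change -1.10 ± 0.38 (SE), adjusted p = 0.271), with both Sham libraries above the rest. Irf7 measured 137 and 108 for Sham, 66.9 and 45.8 for IMQ and 71.9 and 94.6 for IMQ+SHP099 (log2 fold change -1.01 ± 0.31 (SE), adjusted p = 0.238). Usp18 measured 16.4 and 25.5 for Sham, 8.53 and 12.6 for IMQ and 10 and 5.31 for IMQ+SHP099 (log2 fold change -0.99 ± 0.39 (SE), adjusted p = 0.307). Stat2 measured 71.2 and 82.4 for Sham, 46.7 and 48.5 for IMQ and 38.5 and 54.2 for IMQ+SHP099 (log2 fold change -0.61 ± 0.25 (SE), adjusted p = 0.315). For all 4 genes the Sham libraries stood above the IMQ libraries. Oasl2 measured 35.6 and 48.8 for Sham, 24.2 and 33.2 for IMQ and 16.7 and 17 for IMQ+SHP099. The endothelial markers themselves summed to 6250 and 7230 for Sham, 6730 and 6450 for IMQ and 5890 and 6390 for IMQ+SHP099, and the keratinocyte markers to 548 and 226 for Sham, 208 and 102 for IMQ and 569 and 109 for IMQ+SHP099, whose part was not tested.

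**Figure D3:**
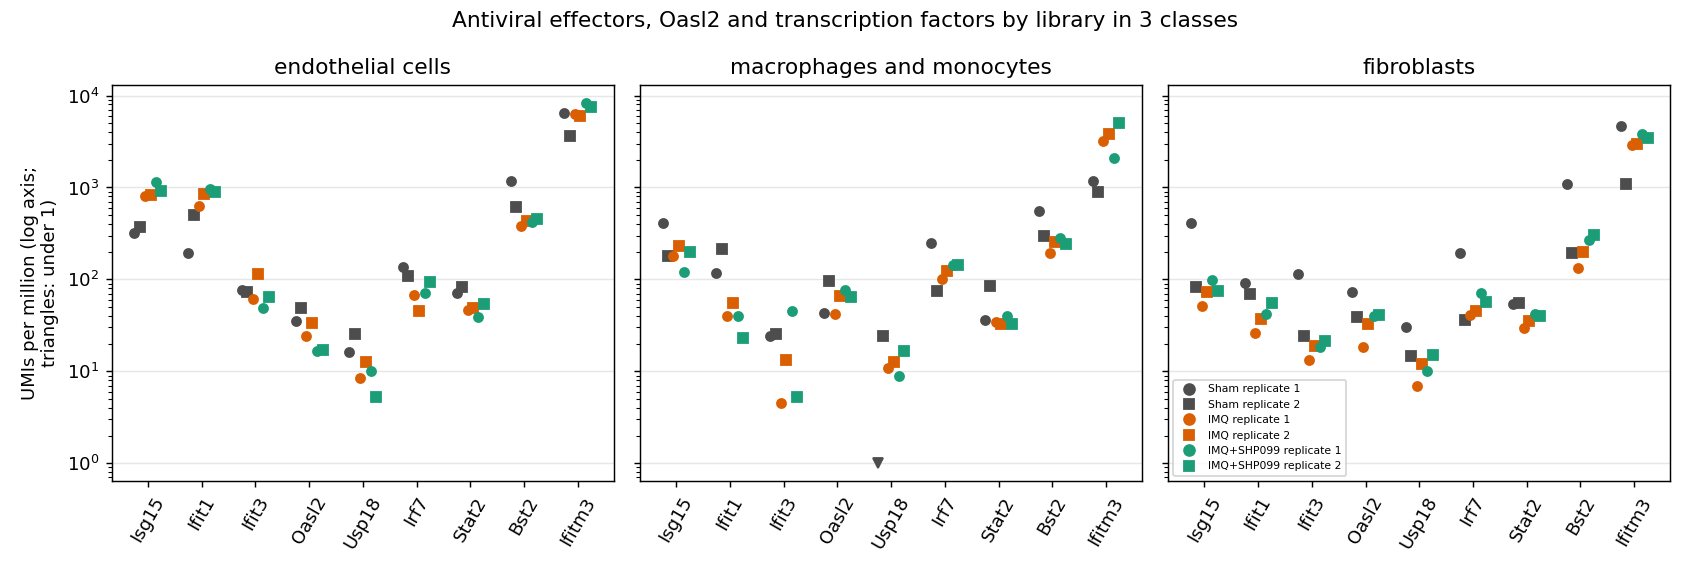
CPM (log axis, UMIs per 1000000) of 9 preset antiviral effectors, Oasl2 and transcription factors by library in the same 3 classes. Colours and symbols are as for the GTPases, and a triangle stands for a value under 1. Isg15 in endothelial cells was 323 and 367 in Sham and 800 to 1140 in the other 4 libraries, while in fibroblasts the first Sham library was highest at 410.

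In macrophages and monocytes 5 of 37 tested members fell in IMQ and 1 rose, beside 5.48% of 9337 genes in either direction, 3% lower and 2.48% higher. Iigp1 measured 30.5 and 42.3 for Sham, 1.93 and 7.4 for IMQ and 26.9 and 5.94 for IMQ+SHP099 (log2 fold change -2.94 ± 0.54 (SE), adjusted p = 0.0115). Gbp2 measured 54.8 and 115 for Sham, 13.2 and 30.4 for IMQ and 40.3 and 66 for IMQ+SHP099 (log2 fold change -1.98 ± 0.42 (SE), adjusted p = 0.0216). Rsad2, which makes the antiviral nucleotide, measured 421 and 446 for Sham, 80.5 and 157 for IMQ and 134 and 95 for IMQ+SHP099 (log2 fold change -1.73 ± 0.38 (SE), adjusted p = 0.0237). Ifit1 measured 116 and 212 for Sham, 39.6 and 55.9 for IMQ and 40.3 and 23.1 for IMQ+SHP099 (log2 fold change -1.70 ± 0.34 (SE), adjusted p = 0.0161), and Ifit2 measured 42.7 and 60 for Sham, 17.7 and 15.9 for IMQ and 31.3 and 10.6 for IMQ+SHP099 (log2 fold change -1.54 ± 0.34 (SE), adjusted p = 0.0248). For these 5 genes, picked by the test on the same libraries, both Sham libraries lay above both IMQ libraries. So they did for 26.3% of the 11470 genes with an average of 1 CPM or more. Ifitm3 measured 1170 and 896 for Sham, 3190 and 3830 for IMQ and 2070 and 5080 for IMQ+SHP099 (log2 fold change 1.90 ± 0.45 (SE), adjusted p = 0.0324), and all 4 libraries of treated mice exceeded both Sham libraries. The 6 calls became none without the second Sham library or without the first IMQ library, 2 without the second IMQ library, and 10 without either IMQ+SHP099 library (10.2% and 10.6% of genes). The Ifitm3 call was lost under the stricter marker gate (log2 fold change 1.61, adjusted p = 0.0875) and without the first Sham library (adjusted p = 0.0574), and DESeq2 did not call Gbp2 (adjusted p = 0.0641) or Ifit2 (adjusted p = 0.355).

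The cells gated as macrophages and monocytes differed in makeup between the groups, and the part of this in the calls was not tested. Cd74, the invariant chain of class II antigen presentation, measured 16000 and 18200 for Sham, 1130 and 1420 for IMQ and 2730 and 1110 for IMQ+SHP099. Mrc1, a marker of resident macrophages, measured 463 and 1150 for Sham, 188 and 133 for IMQ and 506 and 46.2 for IMQ+SHP099. C1qa measured 3630 and 1890 for Sham, 721 and 738 for IMQ and 3300 and 521 for IMQ+SHP099. Lyz2, which is high in monocytes, measured 4130 and 7600 for Sham, 18400 and 15600 for IMQ and 8860 and 13900 for IMQ+SHP099. Among the other gate markers, C1qb, C1qc, Adgre1 and Ms4a7 were lower in both IMQ libraries than in both Sham libraries. Ccr2, Csf1r and Cd68 overlapped between Sham and IMQ. Ccr2 measured 171 and 566 for Sham, 583 and 537 for IMQ and 157 and 396 for IMQ+SHP099. The 10 markers of the gate summed to 17300 and 14900 for Sham, 22300 and 19500 for IMQ and 20600 and 16800 for IMQ+SHP099, the 10 dendritic cell markers to 244 and 1110 for Sham, 62.4 and 66.6 for IMQ and 80.6 and 31 for IMQ+SHP099 and the 7 neutrophil markers to 48.8 and 119 for Sham, 322 and 282 for IMQ and 210 and 305 for IMQ+SHP099. The defining Langerhans marker Cd207 stayed at 13.4 or lower. The keratinocyte markers summed to 646 and 319 for Sham, 263 and 137 for IMQ and 596 and 134 for IMQ+SHP099.

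Other members in these cells did not pass the test. Isg15 measured 414 and 179 for Sham, 178 and 228 for IMQ and 121 and 199 for IMQ+SHP099 (log2 fold change -0.37 ± 0.46 (SE), adjusted p = 0.737). Ifit3 measured 24.4 and 25.5 for Sham, 4.51 and 13.3 for IMQ and 44.8 and 5.28 for IMQ+SHP099. Irf7 measured 250 and 74.2 for Sham, 100 and 123 for IMQ and 143 and 142 for IMQ+SHP099 (log2 fold change -0.24 ± 0.52 (SE), adjusted p = 0.855). The first Sham library, with 49 cells, was highest for Isg15 and Irf7. Bst2 measured 561 and 300 for Sham, 195 and 253 for IMQ and 282 and 242 for IMQ+SHP099 (log2 fold change -0.79 ± 0.39 (SE), adjusted p = 0.303), and Stat2 measured 36.6 and 84.1 for Sham, 34.8 and 32.9 for IMQ and 40.3 and 32.3 for IMQ+SHP099 (log2 fold change -0.89 ± 0.31 (SE), adjusted p = 0.139). Usp18 measured 0 and 24.3 for Sham, 10.9 and 12.6 for IMQ and 8.96 and 16.5 for IMQ+SHP099, and Oasl2 measured 42.7 and 97 for Sham, 42.2 and 66.6 for IMQ and 76.1 and 64 for IMQ+SHP099. Igtp measured 24.4 and 22.2 for Sham, 10.6 and 21.8 for IMQ and 35.8 and 17.8 for IMQ+SHP099 (log2 fold change -0.29 ± 0.41 (SE), adjusted p = 0.772). For Oasl2 the groups overlapped, and for Igtp the first IMQ+SHP099 library was highest. All 8 GTPases had a negative log2 fold change, 6 of them with an unadjusted p under 0.05. Of all 9337 genes tested, 49.5% had a negative log2 fold change and 19.1% an unadjusted p under 0.05 in either direction.

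In T lymphocytes no member passed the test (0 of 30, beside 0.0225% of 8884 genes), and DESeq2 called none (1.28% of genes). Of the 30, 2 had an unadjusted p under 0.05, a smaller share than the 14.4% of all genes. These were Stat2, at 32.1 and 26.3 for Sham, 9.98 and 12.1 for IMQ and 11.3 and 16.8 for IMQ+SHP099 (log2 fold change -1.24 ± 0.39 (SE), unadjusted p = 0.0134, adjusted p = 0.273), and Bst2, at 383 and 250 for Sham, 118 and 120 for IMQ and 282 and 130 for IMQ+SHP099 (log2 fold change -1.23 ± 0.42 (SE), unadjusted p = 0.018, adjusted p = 0.279). Both Sham libraries exceeded both IMQ libraries for each, beside 32% of the 12215 genes with an average of 1 CPM or more. Next came Zbp1 (log2 fold change 0.76 ± 0.43 (SE), unadjusted p = 0.113, adjusted p = 0.442), Irf7 (log2 fold change 0.59 ± 0.34 (SE), unadjusted p = 0.12, adjusted p = 0.452) and Ifit3 (unadjusted p = 0.138, higher in IMQ). Isg15 measured 230 and 397 for Sham, 355 and 577 for IMQ and 86.5 and 271 for IMQ+SHP099, and Ifit1 measured 20.3 and 483 for Sham, 181 and 340 for IMQ and 53.9 and 101 for IMQ+SHP099. The 2 Sham libraries differed more than 20 times for Ifit1. Ifit3 measured 4.7 and 35.5 for Sham, 22 and 64.9 for IMQ and 22.7 and 20.8 for IMQ+SHP099, and Irf7 measured 27.4 and 34.4 for Sham, 32 and 50.6 for IMQ and 39.7 and 36.8 for IMQ+SHP099. Ifitm3 measured 111 and 30.3 for Sham, 73.3 and 86.9 for IMQ and 90.7 and 182 for IMQ+SHP099. Oasl2 stayed between 6.87 and 12, Gbp2 measured 10.2 and 25.2 for Sham, 10.3 and 22 for IMQ and 9.92 and 14.4 for IMQ+SHP099, and Igtp measured 33.7 and 59.5 for Sham, 21.7 and 35.2 for IMQ and 21.3 and 15.2 for IMQ+SHP099. The groups overlapped for Gbp2. Usp18, at 6.3 or lower, and Iigp1, at 13.2 or lower, were too scarce to be tested.

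**Figure D4:**
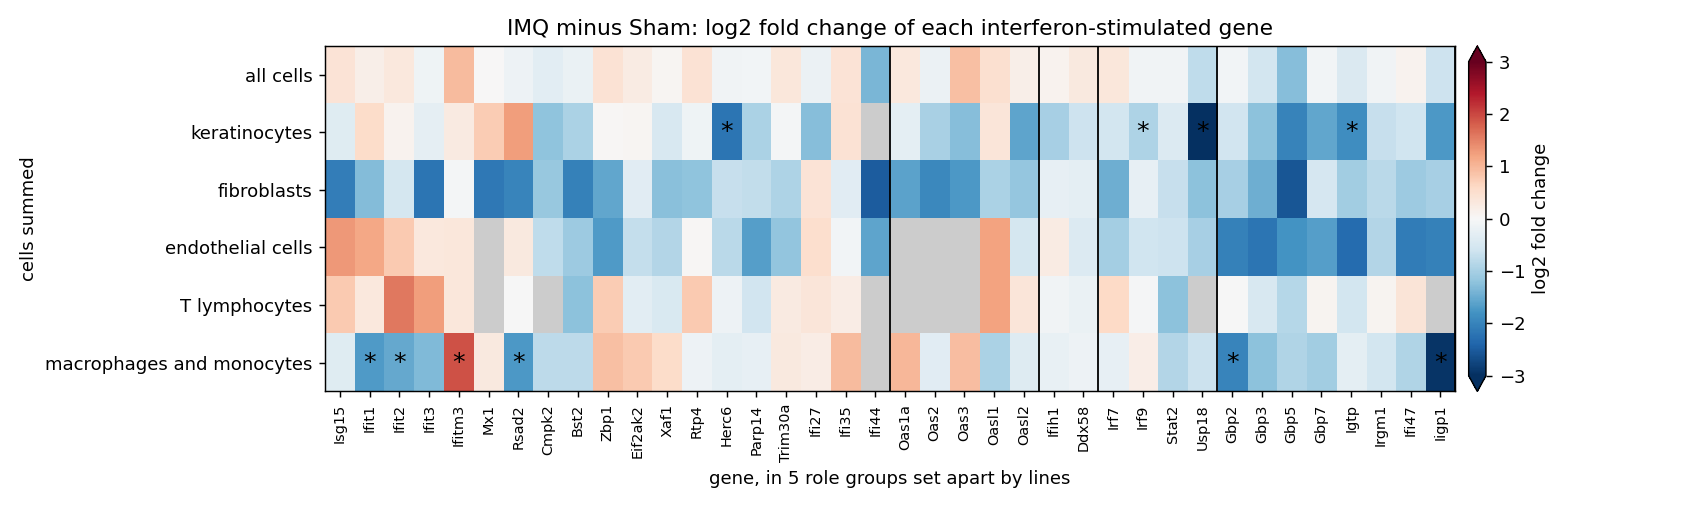
Log2 fold change, IMQ minus Sham, of each interferon-stimulated gene (columns, in role groups) in each sum of cells (rows). Red is higher in IMQ, blue lower, grey not tested, and an asterisk marks an adjusted p under 0.05 by edgeR. The 10 asterisks lie in keratinocytes (Herc6, Irf9, Usp18 and Igtp, all lower) and in macrophages (Ifitm3 higher, the other 5 lower).

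Whether the IMQ minus Sham difference itself differed between cell types was tested for 3 pairs of classes in a joint edgeR fit, a comparison chosen after the values were seen. No member passed between endothelial cells and fibroblasts (0 of 38, beside 1.59% of 12611 genes), between endothelial cells and macrophages (1.28%), or between macrophages and fibroblasts (2.05%). The nearest was Isg15, whose difference was higher in endothelial cells than in fibroblasts by a log2 value of 3.04 ± 0.80 (SE, adjusted p = 0.0661). For Ifit1 the same value was 2.92 ± 0.86 (SE, adjusted p = 0.126), and against macrophages 2.74 ± 0.90 (SE, adjusted p = 0.167). For Igtp it was -1.15 ± 0.42 (SE, adjusted p = 0.257) against fibroblasts and -1.74 ± 0.50 (SE, adjusted p = 0.0996) against macrophages. The opposite directions of Isg15 and Ifit1 in endothelial cells and fibroblasts were therefore not shown to differ by this test.

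The second comparison asked what SHP099 changed on top of imiquimod, and it shares the IMQ libraries with the first. No member passed the test in any of the 6 sums, and no other gene did either (0% of genes over all cells and 0% in keratinocytes, likewise 0% in fibroblasts, 0% in endothelial cells, 0% in T lymphocytes and 0% in macrophages). DESeq2 called no member either. Unadjusted p values under 0.05 numbered 0, 2, 3, 1, 2 and 1 in the same order, of 38, 37, 38, 34, 30 and 37 members tested, beside 0.299%, 2.74%, 1%, 3.42%, 2.4% and 2.35% of all genes. In fibroblasts 37 of 38 members had a positive log2 fold change, with a median of 0.55 against 0.03 for all genes, and for 25 of the 38 (65.8%) both IMQ+SHP099 libraries lay above both IMQ libraries, beside 6.47% of the 12823 genes with an average of 1 CPM or more. Gbp5 measured 2.32 and 2.74 in IMQ against 3.77 and 10.2 in IMQ+SHP099 (log2 fold change 1.53 ± 0.43 (SE), unadjusted p = 0.00826, adjusted p = 1). Gbp2 measured 32.1 and 41.1 in IMQ against 47.3 and 62 in IMQ+SHP099 (log2 fold change 0.66 ± 0.23 (SE), unadjusted p = 0.0236, adjusted p = 1). Gbp7 measured 20.8 and 24.3 in IMQ against 26.4 and 38.8 in IMQ+SHP099 (log2 fold change 0.61 ± 0.24 (SE), unadjusted p = 0.0353, adjusted p = 1). Next in order were Iigp1 (log2 fold change 0.55 ± 0.26 (SE), unadjusted p = 0.0657, adjusted p = 1) and Ifit1 (log2 fold change 0.69 ± 0.32 (SE), unadjusted p = 0.0673, adjusted p = 1).

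In macrophages and monocytes 28 of 37 members had a positive log2 fold change (median 0.24, against -0.02 for all genes). Gbp2 measured 13.2 and 30.4 in IMQ against 40.3 and 66 in IMQ+SHP099 (log2 fold change 1.49 ± 0.44 (SE), unadjusted p = 0.0061, adjusted p = 1), with both IMQ+SHP099 libraries higher. Behind it came Ifi47 (log2 fold change 0.81 ± 0.37 (SE), unadjusted p = 0.0535, adjusted p = 1), Gbp5 (log2 fold change 0.96 ± 0.45 (SE), unadjusted p = 0.0546, adjusted p = 1), Oas2 (log2 fold change 0.67 ± 0.33 (SE), unadjusted p = 0.0697, adjusted p = 1) and Ifit1 (log2 fold change -0.73 ± 0.40 (SE), unadjusted p = 0.0941, adjusted p = 1). The first IMQ+SHP099 library, with 52 cells, lay near Sham for C1qa and Mrc1 and the second did not. In keratinocytes Usp18 measured 0.198 and 0.195 in IMQ against 0.51 and 0.391 in IMQ+SHP099 (log2 fold change 1.45 ± 0.50 (SE), unadjusted p = 0.0185, adjusted p = 1), and Igtp measured 0.528 and 0.897 in IMQ against 1.29 and 1.76 in IMQ+SHP099 (log2 fold change 1.23 ± 0.51 (SE), unadjusted p = 0.042, adjusted p = 1). Isg15 (log2 fold change 0.84 ± 0.45 (SE), unadjusted p = 0.0952, adjusted p = 1), Bst2 (log2 fold change 0.77 ± 0.42 (SE), unadjusted p = 0.106, adjusted p = 1) and Irf7 (log2 fold change 0.68 ± 0.43 (SE), unadjusted p = 0.153, adjusted p = 1) came next. Usp18 remained far under its Sham level in both libraries.

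In endothelial cells the member with the lowest unadjusted p was Oasl2, at 24.2 and 33.2 in IMQ against 16.7 and 17 in IMQ+SHP099 (log2 fold change -0.75 ± 0.32 (SE), unadjusted p = 0.0461, adjusted p = 1), followed by Gbp5 (log2 fold change 0.77 ± 0.34 (SE), unadjusted p = 0.0531, adjusted p = 1), Rtp4 (log2 fold change -0.60 ± 0.30 (SE), unadjusted p = 0.0773, adjusted p = 1), Ifi47 (log2 fold change 0.88 ± 0.47 (SE), unadjusted p = 0.0968, adjusted p = 1) and Irf7 (log2 fold change 0.58 ± 0.32 (SE), unadjusted p = 0.0993, adjusted p = 1). Isg15 there stood at log2 fold change 0.37 ± 0.27 (SE), adjusted p = 1. In T lymphocytes Isg15 measured 355 and 577 in IMQ against 86.5 and 271 in IMQ+SHP099 (log2 fold change -1.43 ± 0.55 (SE), unadjusted p = 0.032, adjusted p = 1), and Oasl1 measured 23.1 and 50.6 in IMQ against 4.25 and 4.8 in IMQ+SHP099 (log2 fold change -3.01 ± 1.08 (SE), unadjusted p = 0.0237, adjusted p = 1). Both IMQ+SHP099 libraries were lower for each, beside 12.9% of the 12215 genes with an average of 1 CPM or more. The first of them held 417 T lymphocytes, of which 44 reached 2000 UMIs. Behind them came Ifi27 (log2 fold change -0.64 ± 0.32 (SE), unadjusted p = 0.0775, adjusted p = 1), Rsad2 (log2 fold change -2.14 ± 1.19 (SE), unadjusted p = 0.11, adjusted p = 1) and Ifit1 (log2 fold change -1.80 ± 1.06 (SE), unadjusted p = 0.128, adjusted p = 1). Over all cells the lowest unadjusted p belonged to Oasl1 (log2 fold change -0.94 ± 1.03 (SE), unadjusted p = 0.397, adjusted p = 1), Oas3, Rsad2, Isg15 and Ifit2, the last at log2 fold change -0.58 ± 0.84 (SE), unadjusted p = 0.52, adjusted p = 1.

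**Figure D5:**
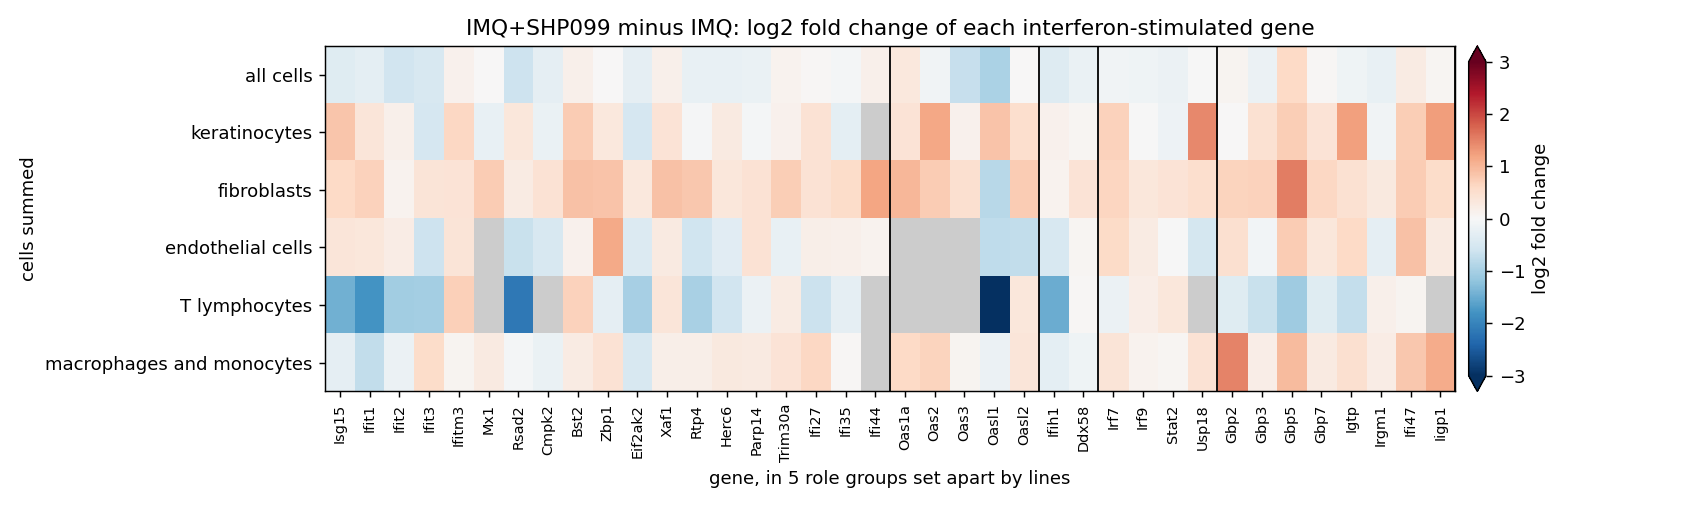
Log2 fold change, IMQ+SHP099 minus IMQ, in the same layout and colour scale as the plot of IMQ minus Sham. No asterisk appears, and the fibroblast row is pale red in all but 1 gene, Oasl1 at -0.84.

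The other genes of the pathway came from a list of 38 genes. In IMQ against Sham, 2 of them rose and 1 fell in keratinocytes, of 27 tested there, beside the 12.5% of all genes called in that class, and none of the 22 to 28 tested passed in the other sums. Socs1, a feedback inhibitor of JAK kinases, rose in keratinocytes (7.57 and 11.9 for Sham, 36.6 and 26.9 for IMQ and 16.9 and 32.6 for IMQ+SHP099, log2 fold change 2.03 ± 0.31 (SE), adjusted p = 0.00564). Myd88, the adaptor of Toll-like receptor 7, rose there (23.7 and 34.5 for Sham, 45.7 and 41.7 for IMQ and 35.4 and 44.6 for IMQ+SHP099, log2 fold change 0.90 ± 0.23 (SE), adjusted p = 0.0382). Ptpn6, a phosphatase related to SHP2, fell (log2 fold change -0.95 ± 0.26 (SE), adjusted p = 0.049). Irf1, a target of interferon gamma, measured 129 and 340 for Sham, 232 and 173 for IMQ and 77 and 163 for IMQ+SHP099 in endothelial cells, and its groups overlapped. Tlr7 was seen mainly in macrophages, at 12.2 and 23.7 for Sham, 27 and 40.7 for IMQ and 17.9 and 38.9 for IMQ+SHP099. Ifnar1 there measured 73.1 and 67.8 for Sham, 61.8 and 80.7 for IMQ and 76.1 and 65.3 for IMQ+SHP099.

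The interferon ligands themselves were scarce. Over all libraries Ifnk had 12 UMIs, Ifna2 had 22 and Ifnl2 had 27, while Ifnb1 had 1303 and Ifng 5345. Cells without a class held many of them. Their Ifnb1 UMIs were 107 and 16 for Sham, 170 and 51 for IMQ and 0 and 118 for IMQ+SHP099. Their Ifng UMIs were 77 and 243 for Sham, 604 and 622 for IMQ and 31 and 651 for IMQ+SHP099. Macrophages with an Ifnb1 UMI were 1 of 49 and 24 of 575 for Sham, 17 of 416 and 20 of 383 for IMQ and 1 of 52 and 8 of 253 for IMQ+SHP099. Ifnb1 in macrophages measured 6.09 and 37.2 for Sham, 36.1 and 43.7 for IMQ and 31.3 and 23.1 for IMQ+SHP099. In endothelial cells it measured 0 and 2.49 for Sham, 2.69 and 16.6 for IMQ and 164 and 37.2 for IMQ+SHP099 (log2 fold change 3.35 ± 0.81 (SE), unadjusted p = 0.00278, adjusted p = 1 for IMQ+SHP099 against IMQ). Both IMQ+SHP099 libraries were highest, but 98 UMIs came from 8 of 126 cells in the first and 35 UMIs from 3 of 157 cells in the second, 28 of them from a single cell. Ifng in T lymphocytes measured 13.3 and 432 for Sham, 275 and 549 for IMQ and 137 and 325 for IMQ+SHP099, with the first Sham library lowest.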

How the data were processed

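Droplet single-cell RNA sequencing of dorsal skin was compared between Sham, IMQ and IMQ+SHP099 mice, with 2 libraries per group. The authors made the deposited UMI counts per gene and barcode with Cell Ranger 3.1.0 on mm10, and the values are raw counts. A barcode entered the analysis when it had fewer than 6500 genes, fewer than 100000 UMIs and less than 10% of UMIs from mitochondrial genes. Classes were gated by marker genes, since no annotation was used here, with at least 3 markers detected, a score of at least 0.2 and a margin of 1.25 times over the next class. No doublet caller was run, and only this margin limited doublets. Cell classes rebuilt in this way may differ from the study's own.

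UMIs were summed per library and class and tested with edgeR 4.0.16 (TMM, filterByExpr, quasi-likelihood, all 6 libraries sharing the spread, two-sided, Benjamini-Hochberg over all genes, threshold 0.05). Class comparisons kept the library as a block. Genes given in full were 12 preset members and, per comparison, up to 10 called members or the 5 with the lowest unadjusted p. The rule for members uses names alone, but members and lists were chosen with earlier results of these data known. Alternatives were RLE scaling, DESeq2 1.42.0, no filter on low counts, only the libraries compared, a stricter gate, a replicate block and leaving out each library. The fits were tested on simulated data. Scores and shares used cells thinned to 2000 UMIs, and promoter sequences came from RefSeq. Python 3.11.15, numpy 2.4.6, scipy 1.17.1, pandas 2.3.3 and R 4.3.3 were used. The values of 1 gene of the pathway list are not reported here.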

Additional observations from a re-analysis of the deposited data

How the results depend on the processing

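Of 211 alternative values for counts of calls and class calls, 181 stayed within 1.5 times the value reported and 30 did not. Some of these 30 rose from no called member to several, as given below. Of 120 alternative values for single named genes, 86 kept their side of the threshold and 34 lost it, and none changed direction. Percentages in brackets are the share of all genes called under the same setting. Without the filter on low counts, members called in IMQ against Sham numbered 23 in fibroblasts (6.72%), 9 in keratinocytes (14.6%), 1 in T lymphocytes (3.48%) and 17 in endothelial cells (4.09%), and those in IMQ+SHP099 against IMQ numbered 1 in fibroblasts (0.384%) and 4 in T lymphocytes (0.314%). The differences between classes then gave 7 (endothelial cells and fibroblasts, 2.44%), 11 (endothelial cells and macrophages, 2.22%) and 6 (macrophages and fibroblasts, 3.06%). DESeq2 called 10 in fibroblasts (4.85%), 7 in keratinocytes (19.3%) and 9 in endothelial cells (0.712%) for IMQ against Sham. The cause was not tested. Leaving out a library gave 1 to 5 calls in keratinocytes (3.39% to 15.2%), 0 to 12 in endothelial cells (0.00876% to 4.55%), 0 to 1 in T lymphocytes (0% to 1.37%, the 1 without the second Sham library) and 0 to 10 in macrophages (0.0222% to 10.6%). It gave 6 to 14 members higher in T lymphocytes than in other classes, and 0 to 6, 0 to 7 and 0 to 4 for the 3 differences between classes in the order above. The groups of 2 libraries and the classes with few cells limit every call.

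The labels do not say that equal replicate numbers mark a shared animal, batch or day. Deviations of same-numbered libraries from their group means correlated at 0.36, 0.47 and 0.56 over all cells and at 0.17, 0.14 and 0.39 in T lymphocytes, for the 3 pairs of groups, and at -0.05 to 0.20 in the other classes. In all 3 groups replicate 1 held more keratinocytes than replicate 2. Whether the numbers pair the libraries is therefore not given by the labels, and the correlations are a hint from the data. With a replicate block, IMQ against Sham still had no member called over all cells or in T lymphocytes, while all genes called there went from 0 to 287 (1.65%) and from 2 to 189 (2.13%). The fibroblast count was 1 in place of 0 (1.78%), the keratinocyte count 5 in place of 4 (18.3%), the macrophage count stayed 6 (6.07%) and the endothelial count stayed 0 (0.198%). No member was called in IMQ+SHP099 against IMQ with the block.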
